A study of Mus musculus with 6 samples.

Results

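Non-cycling, Camp-Ngp-high immature neutrophils were examined in 6 droplet single-cell RNA libraries of marrow from mice bearing an acute myeloid leukaemia. A cell was counted as a member when it had at least 500 detected genes, at most 10% mitochondrial UMIs (unique molecular identifiers, 1 per captured transcript), at least 3% of its UMIs from Camp and Ngp together, and 0 UMIs of Cxcr2, Mki67 and Top2a. The rule was met by 1805 of the 44672 cells that passed the first 2 limits, out of 58337 barcodes in all. Non-cycling names the limit on Mki67 and Top2a only, since many members labelled MA9 f/f held S-phase transcripts, as given below. The leukaemias carried MLL-AF9 (MA9) or Hoxa9 with Meis1 (HM), and per the labels' protocols they came from mouse embryonic stem cells given those genes. The MA9 libraries are labelled Shp-1 Δ/Δ with AraC + Dox (cytarabine and doxorubicin chemotherapy), Shp-1 Δ/Δ with PBS, Shp-1 f/f with AraC + Dox and Shp-1 f/f with PBS, where f/f is the floxed and Δ/Δ the deleted allele of the phosphatase gene Ptpn6. The HM libraries are titled Shp-1 f/f and are labelled AraC + Dox or PBS, and the labels used here give no doses, times, ages, numbers of mice or driver of the deletion. Each label stands for 1 library, so a difference between 2 libraries has no replicate, and intervals between libraries cover counting error only. Differences over several libraries, MA9 against HM or AraC + Dox against PBS, were not tested.

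Neutrophils mature in the marrow along an ordered path on which granule proteins are made in waves. Promyelocytes make the primary granule proteases and myeloperoxidase, myelocytes and metamyelocytes make the secondary granule proteins such as lactoferrin, cathelicidin and neutrophilic granule protein, and band cells add gelatinase before the mature cell gains Cxcr2 and leaves the marrow. Cell division stops around the myelocyte stage, so a cell with abundant Camp and Ngp that has lost proliferation transcripts and has not gained Cxcr2 falls between the dividing and the mature cells on that path.

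Camp encodes the cathelicidin antimicrobial peptide, Ngp the cystatin-like neutrophilic granule protein, and Ltf, a marker that the rule did not use, the iron-binding protein lactoferrin. All 3 genes lie on mouse chromosome 9 in GRCm38: Camp at chr9:109847379-109849617 on the minus strand, Ngp at chr9:110419747-110423012 on the plus strand and Ltf at chr9:111019271-111042767 on the plus strand. The RefSeq bases upstream of their starts (GRCm38.p6) are shown because secondary granule genes are known targets of C/EBP factors, and the population is defined by them. Capitals mark matches to TTNNGNAA or its reverse complement TTNCNNAA, a loose form of the C/EBP half-site pair searched on both strands with overlapping matches kept.
Camp (chr9:109849618-109849706, minus strand): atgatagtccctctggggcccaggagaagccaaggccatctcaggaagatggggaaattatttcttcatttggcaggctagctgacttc
Ngp (chr9:110419558-110419746, plus strand): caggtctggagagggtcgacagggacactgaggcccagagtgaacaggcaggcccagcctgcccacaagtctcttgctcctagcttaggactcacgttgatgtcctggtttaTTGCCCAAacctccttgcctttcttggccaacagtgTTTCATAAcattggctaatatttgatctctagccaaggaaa
Ltf (chr9:111019042-111019270, plus strand): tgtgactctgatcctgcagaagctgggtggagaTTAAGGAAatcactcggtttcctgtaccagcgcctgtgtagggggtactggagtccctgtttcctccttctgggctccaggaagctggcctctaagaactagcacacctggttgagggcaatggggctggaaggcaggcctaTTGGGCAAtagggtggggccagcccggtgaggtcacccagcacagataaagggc

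The printed Ngp stretch held 2 matches, the Ltf stretch held 2 and the Camp stretch held 0. Of 32851 RefSeq windows of 250 bases before a gene start, 36.8% held at least 1 match, so a match is a description of the letters and no sign of binding.

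The deposited matrices held 10748 and 10380 barcodes in the libraries labelled MA9 Δ/Δ, 10281 and 9090 barcodes in those labelled MA9 f/f, and 5364 and 12474 barcodes in HM (AraC + Dox and PBS in each), with 29347365 to 105272403 UMIs per library. The share of barcodes within the limits was 87.9 and 90.9% in the libraries labelled MA9 Δ/Δ, 94.8 and 94.8% in those labelled MA9 f/f, and 87.2 and 22.1% in HM (AraC + Dox and PBS in each). HM PBS stood apart, because 74.7% of its barcodes were over the mitochondrial limit, against 1.83% to 8.33% in the other 5 libraries. Levels are given as CPM, the UMIs of a gene per 1000000 UMIs summed over the cells named, with no term for gene length because each transcript is tagged once at its 3′ end. In the members Ptpn6, the gene that the Δ/Δ label says is deleted, stood at 67.8 and 182 CPM in the libraries labelled MA9 Δ/Δ, 72.3 and 234 CPM in those labelled MA9 f/f, and 132 and 141 CPM in HM (AraC + Dox and PBS in each). In all other kept cells it stood at 43.6 and 172 CPM in the libraries labelled MA9 Δ/Δ, 56.9 and 182 CPM in those labelled MA9 f/f, and 113 and 134 CPM in HM (AraC + Dox and PBS in each). It was thus low in the library with the label f/f AraC + Dox and high in that with the label Δ/Δ PBS, against 2 of the MA9 labels. Libraries are called by their labels throughout, and no direction between MA9 libraries is read as an effect of genotype or treatment. Libraries shared 21 to 34 barcodes within MA9 and 37 within HM, and no barcode of a member was shared.

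The label of immature neutrophil was checked against markers that the rule did not use. In the members Ltf reached 4381 and 5227 CPM in the libraries labelled MA9 Δ/Δ, 2250.0 and 5119 CPM in those labelled MA9 f/f, and 8301 and 9134 CPM in HM (AraC + Dox and PBS in each). The share of members with at least 1 Ltf UMI was 81.2 and 75.8% in the libraries labelled MA9 Δ/Δ, 46.8 and 78.9% in those labelled MA9 f/f, and 100 and 100% in HM (AraC + Dox and PBS in each). In lymphoid cells of the same libraries, which have at least 3 UMIs of Cd3 and Cd79 genes, less than 3% Camp and Ngp, and should lack Ltf, that share was 1.04 and 1.40% in the libraries labelled MA9 Δ/Δ, 7.80 and 11.8% in those labelled MA9 f/f, and 71.9 and 36.1% in HM (AraC + Dox and PBS in each). Median depths were 3805 to 8574 UMIs in the members and 2942 to 9880 UMIs in the lymphoid cells. Cells were also thinned to 2000 UMIs, for which 29 of 32, 27 of 33, 639 of 663, 813 of 850, 127 of 134 and 77 of 93 members were deep enough in the order of the libraries above. The thinned share was 89.7 and 81.5% in the libraries labelled MA9 Δ/Δ, 39.9 and 75.2% in those labelled MA9 f/f, and 100 and 100% in HM (AraC + Dox and PBS in each) in the members. In lymphoid cells so thinned it was 0.17 and 0.298% in the libraries labelled MA9 Δ/Δ, 3.37 and 6.96% in those labelled MA9 f/f, and 38.5 and 25% in HM (AraC + Dox and PBS in each). The members stood above that background in every library, while in HM Ltf was seen in many cells that should lack it. The source of those UMIs was not tested. The other 9 immature neutrophil markers, without Camp and Ngp, summed to 28822 and 28702 CPM in the libraries labelled MA9 Δ/Δ, 20828 and 28402 CPM in those labelled MA9 f/f, and 30579 and 30204 CPM in HM (AraC + Dox and PBS in each) in the members. In the other kept cells they summed to 2923 to 8902 CPM in MA9 and 10800.3 to 16859.6 CPM in HM, below the members of the same library. By the rule, Camp and Ngp were high: in the members Camp stood at 34978 and 35357 CPM in the libraries labelled MA9 Δ/Δ, 51594 and 45603 CPM in those labelled MA9 f/f, and 29669.9 and 43663 CPM in HM (AraC + Dox and PBS in each). Ngp stood at 29981 and 23721 CPM in the libraries labelled MA9 Δ/Δ, 24487 and 28505 CPM in those labelled MA9 f/f, and 32347 and 27446 CPM in HM (AraC + Dox and PBS in each). Camp and Ngp together had a median of 6.43%, 4.79%, 7.51%, 7.20%, 5.11% and 6.06% per cell in the same order. Markers of most other lineages summed to less in the members than in the other kept cells. The 6 monocyte markers summed to 10.7 to 102 CPM in the members and 466 to 582 CPM in the other kept cells. The 6 T and NK markers summed to 36.7 to 187 CPM in the members and 112 to 467 CPM in the other cells, and the 5 B cell markers to 0 to 45.2 CPM and 9.23 to 139 CPM. All 5 erythroid markers were at 0 in the members of 5 libraries. The 4 plasma cell markers summed to 49.8 to 198 CPM in the members and 116 to 734 CPM in the other cells, the 5 dendritic markers to 2.84 to 56.5 CPM and 51.5 to 537 CPM, and the 4 mast cell and basophil markers to 0 to 56.0 CPM and 3.67 to 691 CPM. The 4 macrophage markers summed to 0 to 22.9 CPM in the members and 9.98 to 79.5 CPM in the other cells. The 4 eosinophil markers, at 0 to 15.7 CPM and 6.38 to 66.2 CPM, were the exception in HM PBS, with 15.7 CPM in the members and 6.38 CPM in the other cells. The 6 stem and progenitor markers stood at 84.8 and 123 CPM in the libraries labelled MA9 Δ/Δ, 119.7 and 123 CPM in those labelled MA9 f/f, and 5.34 and 21.0 CPM in HM (AraC + Dox and PBS in each) in the members. In the other cells they stood at 183 and 488 CPM in the libraries labelled MA9 Δ/Δ, 129.8 and 214 CPM in those labelled MA9 f/f, and 77.1 and 29.9 CPM in HM (AraC + Dox and PBS in each), close to the members in the library with the label MA9 f/f AraC + Dox. At least 3 lymphoid UMIs were seen in 1, 0, 4, 3, 0 and 0 members in the same order of libraries.

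Cells lay on both sides of the Camp and Ngp limit. Just inside it, at 3% to 4%, lay 2, 12, 79, 84, 31 and 21 members in the libraries labelled MA9 Δ/Δ AraC + Dox, Δ/Δ PBS, f/f AraC + Dox, f/f PBS, HM AraC + Dox and HM PBS. Just outside it, at 2% to 3%, lay 3, 9, 131, 83, 38 and 23 cells that met every other limit. Across that edge Ltf stood at 3366 CPM inside and 3399.8 CPM outside in the library with the label MA9 f/f PBS, at 650.2 and 267.8 CPM in that with the label MA9 f/f AraC + Dox, and at 6643 and 4356 CPM in HM AraC + Dox.

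As counted, the members were more frequent in the MA9 libraries labelled f/f than in the other 4 libraries, and at equal depth the gap to HM was smaller. They numbered 32 and 33 cells in the AraC + Dox and PBS libraries labelled MA9 Δ/Δ, 663 and 850 in those labelled MA9 f/f, and 134 and 93 in HM. Thus 83.8% of all members came from the 2 libraries labelled MA9 f/f. As a share of kept cells the members were 0.339% (95% Clopper-Pearson interval 0.232 to 0.478) in MA9 Δ/Δ AraC + Dox and 0.35% (0.241 to 0.491) in MA9 Δ/Δ PBS. It was 6.80% (6.31 to 7.32) in MA9 f/f AraC + Dox and 9.87% (9.25 to 10.5) in MA9 f/f PBS. In HM it was 2.87% (2.41 to 3.39) with AraC + Dox and 3.38% (2.73 to 4.12) with PBS. The intervals of the 2 libraries labelled Δ/Δ overlap, as do those of the 2 HM libraries, while those labelled f/f do not overlap each other. Among all 8665 Camp-Ngp-high cells the members made up 12.5 and 14.5% in the libraries labelled MA9 Δ/Δ, 20.2 and 26.8% in those labelled MA9 f/f, and 14.2 and 11.9% in HM (AraC + Dox and PBS in each). Cycling cells, with at least 1 UMI of Mki67 or Top2a and none of Cxcr2, made up 69.3 and 67.8% in the libraries labelled MA9 Δ/Δ, 69.9 and 56.5% in those labelled MA9 f/f, and 16.9 and 38.8% in HM (AraC + Dox and PBS in each). Cells with Cxcr2 made up 18.3 and 17.6% in the libraries labelled MA9 Δ/Δ, 9.91 and 16.7% in those labelled MA9 f/f, and 68.9 and 49.3% in HM (AraC + Dox and PBS in each). Cycling cells thus outnumbered cells with Cxcr2 in all 4 MA9 libraries, and the reverse held in both HM libraries at the depth sequenced. The absence of a UMI depends on depth. The median depth was 5924 and 4938 UMIs in the libraries labelled MA9 Δ/Δ, 6348 and 5146 UMIs in those labelled MA9 f/f, and 8574 and 3805 UMIs in HM (AraC + Dox and PBS in each) in the members. In the cycling cells it was 9824 and 11276 UMIs in the libraries labelled MA9 Δ/Δ, 9108 and 8208 UMIs in those labelled MA9 f/f, and 14665 and 6298 UMIs in HM (AraC + Dox and PBS in each), deeper in every library. When every cell was thinned to 2000 UMIs before the limits were applied, the members' share was 0.828 and 1.04% in the libraries labelled MA9 Δ/Δ, 13.6 and 16.9% in those labelled MA9 f/f, and 11.2 and 9.46% in HM (AraC + Dox and PBS in each), because shallow cells were left out and fewer cells kept a Mki67, Top2a or Cxcr2 UMI. Of the thinned Camp-Ngp-high cells, cycling cells made up 64.8 and 49.8% in the libraries labelled MA9 Δ/Δ, 58.1 and 47.5% in those labelled MA9 f/f, and 24.8 and 43.4% in HM (AraC + Dox and PBS in each). Cells with Cxcr2 made up 7.69 and 11.8% in the libraries labelled MA9 Δ/Δ, 4.27 and 8.69% in those labelled MA9 f/f, and 24.0 and 25.4% in HM (AraC + Dox and PBS in each) of them, so in HM the order of the unthinned cells did not hold at equal depth.

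**Figure D1:**
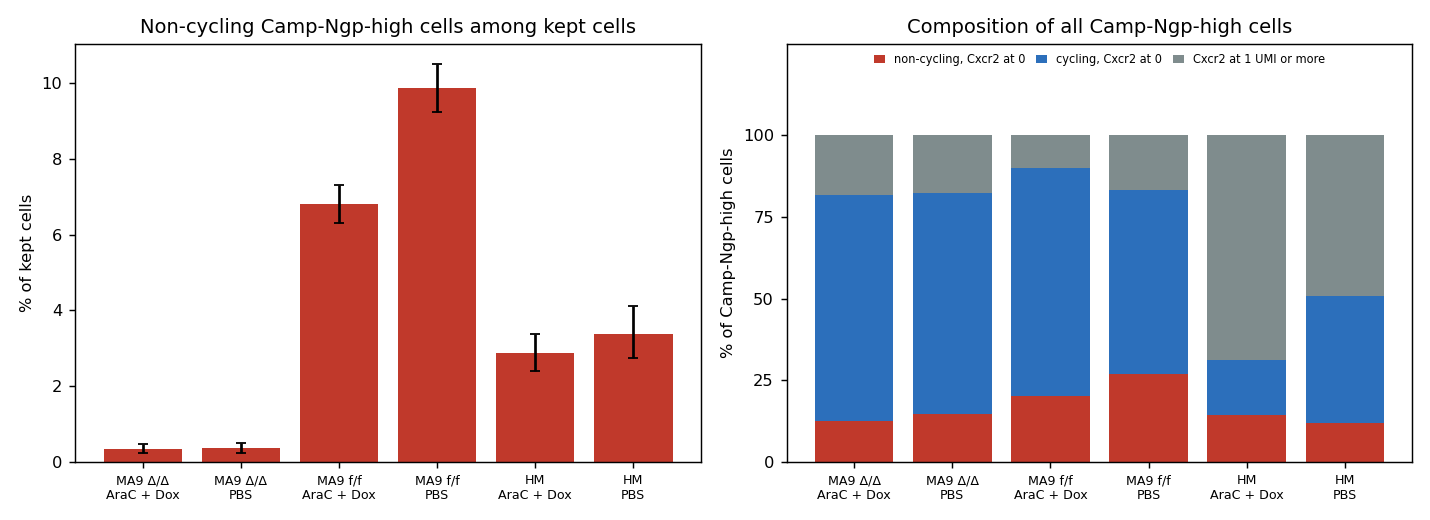
Left, the share of kept cells that were non-cycling Camp-Ngp-high, in percent, per library, with exact 95% binomial intervals as error bars; right, how all Camp-Ngp-high cells of each library divide into non-cycling cells, cycling cells and cells with Cxcr2. The share is highest at 9.87% in MA9 f/f PBS and lowest at 0.339% in MA9 Δ/Δ AraC + Dox, and the part with Cxcr2 is 68.9% in HM AraC + Dox and 49.3% in HM PBS.

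The members were set against 2 neighbouring populations of the same library, with the library as a block, so that the library is the replicate and its label does not enter. The first was the 4923 Cxcr2-positive cells without Mki67 or Top2a, the second the 4881 cycling Camp-Ngp-high cells. UMIs were summed per library and population and tested with edgeR over all genes but Camp, Ngp, Cxcr2, Mki67 and Top2a. A gene was called at a Benjamini-Hochberg adjusted p below 0.05 and a difference of at least 1.5-fold. Against Cxcr2-positive cells 511 of 7651 genes were called higher in the members (6.68%) and 976 lower (12.8%), 19.4% in either direction. Against cycling cells 1073 of 8153 were called higher (13.2%) and 1339 lower (16.4%), 29.6% in either direction. The populations were separated by rule genes, so these tests describe what the limits divide, and both contrasts share the members. In the libraries labelled Δ/Δ the Cxcr2-positive cells had little Camp and Ngp (medians of 0.0419% and 0% of UMIs with AraC + Dox and with PBS), against 2.32% and 2.28% in those labelled f/f and 0.912% and 0.361% in HM. Monocyte markers summed to 102 and 10.7 CPM in the libraries labelled MA9 Δ/Δ, 53.6 and 54.9 CPM in those labelled MA9 f/f, and 24.9 and 41.9 CPM in HM (AraC + Dox and PBS in each) in the members. In Cxcr2-positive cells they summed to 653 and 241 CPM in the libraries labelled MA9 Δ/Δ, 188 and 165 CPM in those labelled MA9 f/f, and 79.5 and 90.8 CPM in HM (AraC + Dox and PBS in each), more in every library. Dendritic markers summed to 2.84 to 56.5 CPM in the members and 5.64 to 128 CPM in Cxcr2-positive cells. They were higher in the Cxcr2-positive cells except in HM PBS, where the values were close. There they stood at 5.24 CPM on 2 UMIs in the members and 5.64 CPM on 29 UMIs in Cxcr2-positive cells. The part of both marker sets in the genes lower than in Cxcr2-positive cells was not tested.

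Proteases of the primary granule, the earliest wave, were lower in the members than in cycling cells. Of 14 primary granule genes tested (16 listed), 6 fell (against 16.4% of all genes) and 1 rose, and the list's median log2 difference was -0.10 (-0.01 over all genes). In the members Elane, which encodes neutrophil elastase, stood at 1108 and 3172 CPM in the libraries labelled MA9 Δ/Δ, 2287 and 781 CPM in those labelled MA9 f/f, and 74.7 and 128 CPM in HM (AraC + Dox and PBS in each). Cycling cells had 1534 to 4013 CPM in MA9 and 685 to 1119 CPM in HM, above the members of every library. Elane had a log2 fold change of -1.24 ± 0.30 (SE) against cycling cells (edgeR adjusted p = 0.0029, lower in 6 of 6 libraries). Prtn3, proteinase 3, stood at 769 and 2359 CPM in the libraries labelled MA9 Δ/Δ, 1774 and 518 CPM in those labelled MA9 f/f, and 158 and 70.7 CPM in HM (AraC + Dox and PBS in each) in the members. Cycling cells held 1103 to 2844 CPM in MA9 and 1111 to 1180.4 CPM in HM. Prtn3 differed by -1.35 ± 0.32 (SE) from cycling cells on the log2 scale (edgeR adjusted p = 0.0027, lower in 6 of 6 libraries). Both proteases were lower in the members of each HM library than in those of any MA9 library. With cells thinned to 2000 UMIs the share of members with Elane was 51.7 and 33.3% in the libraries labelled MA9 Δ/Δ, 54.6 and 23.7% in those labelled MA9 f/f, and 14.2 and 6.49% in HM (AraC + Dox and PBS in each). The share of lymphoid cells was 50.8 and 44.1% in the libraries labelled MA9 Δ/Δ, 62.9 and 46.5% in those labelled MA9 f/f, and 20.8 and 10.7% in HM (AraC + Dox and PBS in each). Elane was likewise seen in 47.6% to 88.0% of cycling cells in MA9 and 26.8% to 27.4% in HM, and in 9.70% to 29.5% of Cxcr2-positive cells in MA9 and 5.53% to 14.7% in HM. Prtn3 was seen in 22.9% to 62.1% of members in MA9 and 9.09% to 20.5% in HM, and in 62.2% to 80.1% of lymphoid cells in MA9 and 14.3% to 31.6% in HM. The members thus stood at or below the lymphoid share in 5 of 6 libraries for Elane and in 6 of 6 for Prtn3. Prtn3 was seen in 12.8% to 48.4% of Cxcr2-positive cells in MA9 and 7.95% to 24.1% in HM. For both genes Cxcr2-positive cells were below lymphoid cells in every library, so the lymphoid share was not common to all cells. Mpo was likewise seen in 49.6% to 58.6% of lymphoid cells in MA9, against 7.36% to 28.7% of Cxcr2-positive cells. The lymphoid share is thus no measure of background for primary granule genes. Whether the cells counted as lymphoid hold such RNA of their own was not tested. For Elane and Prtn3 the members stood above the Cxcr2-positive share in every MA9 library and in HM PBS, and below it in HM AraC + Dox. Whether the protease UMIs in the members are their own RNA was not tested, and they are not read as expression by them. Mpo (myeloperoxidase), Ctsg (cathepsin G), Prss57 (neutrophil serine protease 4) and Ms4a3, a membrane protein of granulocyte-monocyte progenitors, also fell, with log2 fold changes of -1.54, -1.14, -1.11 and -1.08. The calls for Elane, Prtn3, Mpo, Ctsg and Ms4a3 against cycling cells were lost when cells were thinned to 2000 UMIs before the limits, which left 1 of the 6. Against Cxcr2-positive cells the list split, with 5 of 14 higher (6.68% of all genes) and 4 lower (12.8%). Elane was higher in the members (log2 fold change 1.39 ± 0.36 (SE), edgeR adjusted p = 0.012, higher in 5 of 6 libraries), as were Ms4a3 (1.55), Prss57 (0.99), Serpinb1a, an inhibitor of these proteases (1.02), and Cd63, a granule membrane tetraspanin (0.93). The call for Elane was lost at a Camp and Ngp limit of 5%, and that for Prss57 without any 1 of 3 MA9 libraries (Δ/Δ PBS, f/f AraC + Dox or f/f PBS). Ctsc, which activates these proteases (-1.21), Ctsg (-0.61, lost in 9 alternatives), Man2b1, a lysosomal mannosidase (-0.59, lost in 7 alternatives), and Mpo fell. Mpo stood at 67.8 and 107 CPM in the libraries labelled MA9 Δ/Δ, 179.9 and 152 CPM in those labelled MA9 f/f, and 56.9 and 18.3 CPM in HM (AraC + Dox and PBS in each) in the members. Cxcr2-positive cells had 216 to 645 CPM in MA9 and 13.8 to 68.2 CPM in HM. Mpo had a log2 fold change of -0.99 ± 0.26 (SE) against Cxcr2-positive cells (edgeR adjusted p = 0.015, lower in 5 of 6 libraries). That call was lost without the library with the label MA9 Δ/Δ PBS and without that with the label MA9 f/f PBS, and with thinned cells the log2 difference was 0.01 (edgeR adjusted p = 0.98).

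**Figure D2:**
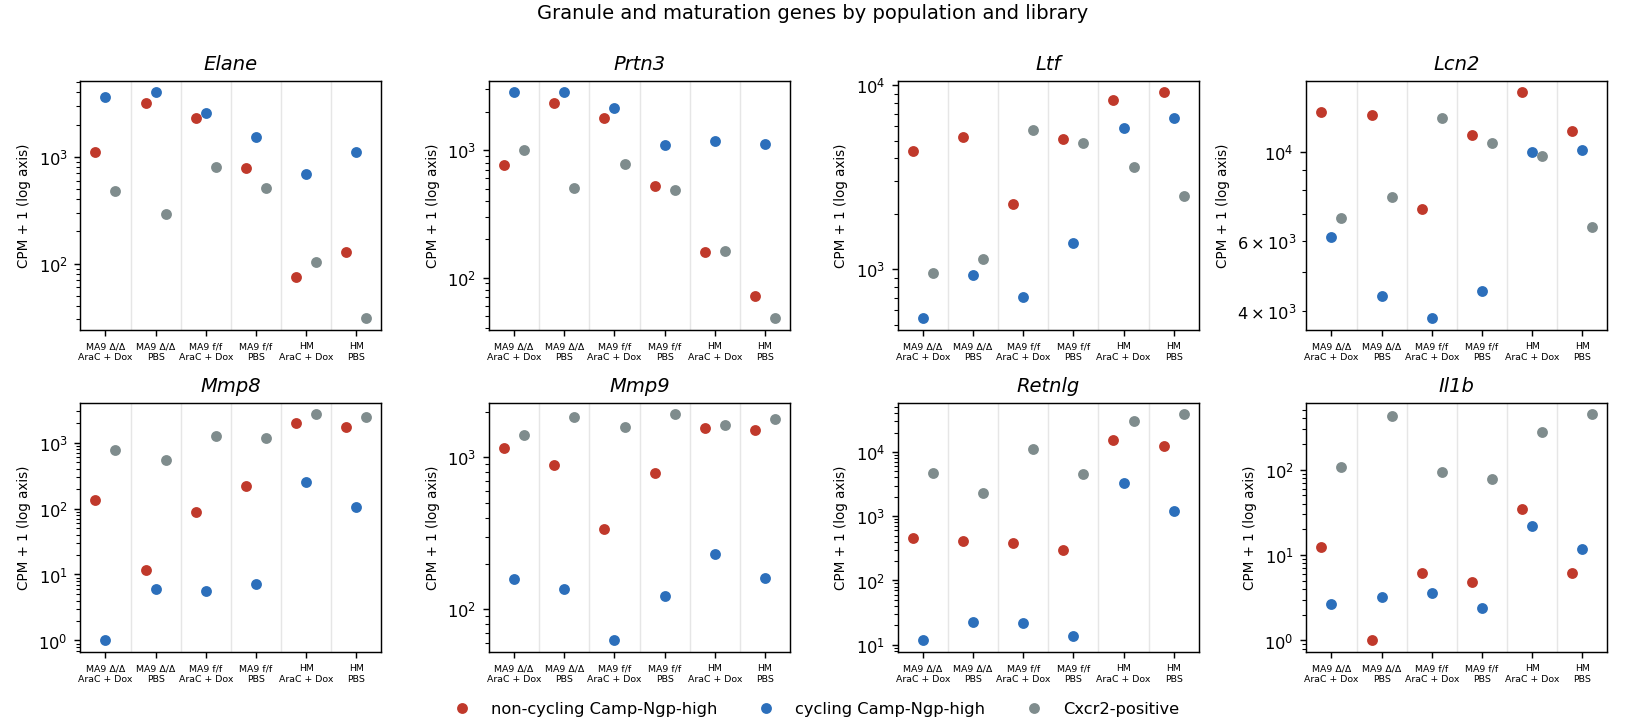
Summed CPM plus 1 on a log axis for 8 granule and maturation genes, with 1 point per library and population: non-cycling Camp-Ngp-high cells, cycling Camp-Ngp-high cells and Cxcr2-positive cells. Elane and Prtn3 are higher in cycling cells than in the non-cycling cells of every library. Ltf and Lcn2 are higher in the non-cycling cells than in the cycling cells of every library. Mmp8 and Retnlg are highest in Cxcr2-positive cells of every library.

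Secondary granule genes were mostly higher in the members than in cycling cells. Of 17 listed apart from Camp and Ngp, all tested, 11 rose and 1 fell, against 13.2% and 16.4% of all genes, with a median log2 difference of 0.74. Ltf, given above for the members, stood at 540.4 to 1383 CPM in MA9 and 5872 to 6636 CPM in HM in cycling cells. Ltf differed by 1.89 ± 0.25 (SE) from cycling cells on the log2 scale (edgeR adjusted p = 9.4e-06, higher in 6 of 6 libraries). In the members Lcn2, the siderophore-binding lipocalin, stood at 12566 and 12315 CPM in the libraries labelled MA9 Δ/Δ, 7177 and 10981 CPM in those labelled MA9 f/f, and 14057 and 11235 CPM in HM (AraC + Dox and PBS in each). Cycling cells had 3837 to 6127 CPM in MA9 and 9995 to 10095 CPM in HM. Lcn2 had a log2 fold change of 1.13 ± 0.15 (SE) against cycling cells (edgeR adjusted p = 1e-05, higher in 6 of 6 libraries). Olfm4, a granule glycoprotein made by part of the neutrophils, stood at 1469.7 and 1573 CPM in the libraries labelled MA9 Δ/Δ, 1100.5 and 1235 CPM in those labelled MA9 f/f, and 93.4 and 31.4 CPM in HM (AraC + Dox and PBS in each) in the members, so that it was high in MA9 and low in HM. Cycling cells had 585 to 1028 CPM in MA9 and 8.95 to 15.6 CPM in HM. Olfm4 differed by 1.28 ± 0.21 (SE) from cycling cells on the log2 scale (edgeR adjusted p = 8.1e-05, higher in 6 of 6 libraries). The other genes that rose were Mmp8, Anxa1 (annexin A1, 1.41), Slpi (a protease inhibitor, 1.37), Plaur (urokinase receptor, 1.05), Itgb2l (a beta-2 integrin-like chain, 0.74), Cybb (the oxidase subunit gp91phox, 0.74), Cd177 (a neutrophil surface glycoprotein, 0.71) and Pglyrp1 (a peptidoglycan-binding protein, 0.66). With thinned cells 7 of the 11 calls were kept, and those of Itgb2l, Cybb, Cd177 and Pglyrp1 were lost. Cd177 and Pglyrp1 were also lost at a Camp and Ngp limit of 5%, and Pglyrp1 with no filter on low counts. Fcnb, ficolin B, a lectin of early neutrophil precursors, was the gene that fell. It stood at 1469.7 and 1434 CPM in the libraries labelled MA9 Δ/Δ, 1569 and 1787 CPM in those labelled MA9 f/f, and 163 and 233 CPM in HM (AraC + Dox and PBS in each) in the members. Cycling cells had 1494 to 2090.3 CPM in MA9 and 1065 to 1095 CPM in HM (log2 fold change -0.69 ± 0.27 (SE), edgeR adjusted p = 0.044, lower in 5 of 6 libraries), the gap being wide in HM and narrow in MA9. That call was lost with DESeq2, with thinned cells and without any 1 of 3 libraries (MA9 Δ/Δ AraC + Dox, HM AraC + Dox or HM PBS).

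Against Cxcr2-positive cells 5 of the 17 secondary granule genes rose and 2 fell (6.68% and 12.8% of all genes), with a median of 0.38. Fcnb and Chil3, the chitinase-like protein Ym1, were the clearest. Fcnb stood at 52.6 to 669 CPM in MA9 and 19.2 to 31.2 CPM in HM in Cxcr2-positive cells, below the members of every library. Fcnb had a log2 fold change of 2.78 ± 0.34 (SE) against Cxcr2-positive cells (edgeR adjusted p = 6.8e-05, higher in 6 of 6 libraries). Chil3 stood at 3702 and 4259 CPM in the libraries labelled MA9 Δ/Δ, 4706 and 5684 CPM in those labelled MA9 f/f, and 2153 and 1624 CPM in HM (AraC + Dox and PBS in each) in the members. Cxcr2-positive cells had 344 to 2226 CPM in MA9 and 341 to 698 CPM in HM. Chil3 differed by 2.02 ± 0.28 (SE) from Cxcr2-positive cells on the log2 scale (edgeR adjusted p = 0.00019, higher in 6 of 6 libraries). Its difference from cycling cells did not pass the test (-0.30 ± 0.17, edgeR adjusted p = 0.18). Cycling cells held 2914 to 6749 CPM in MA9 and 4194 to 5516 CPM in HM of it. Orm1, an acute phase glycoprotein, was also higher than in Cxcr2-positive cells (1.74), as were Olfm4 (0.94) and Cybb (0.77). The call for Olfm4 was lost without the library with the label MA9 Δ/Δ PBS and at a Camp and Ngp limit of 5%, and that for Cybb without any 1 of 3 libraries (MA9 Δ/Δ AraC + Dox, MA9 Δ/Δ PBS or HM PBS). Ltf did not pass this test (1.11 ± 0.43, edgeR adjusted p = 0.071): it was higher in the members of 5 libraries, but in the library with the label MA9 f/f AraC + Dox it stood at 2250.0 CPM in the members and 5692 CPM in Cxcr2-positive cells. Lcn2 did not pass either (0.38 ± 0.25, edgeR adjusted p = 0.29). Slpi (-0.92) and Mmp8 fell.

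The late wave lay between the neighbours, above cycling cells and in part below Cxcr2-positive cells. Of the gelatinase and late granule genes, 10 of 10 tested rose against cycling cells and 6 of 12 fell against Cxcr2-positive cells, with medians of 1.97 and -0.73 (12 were listed). Over all genes 13.2% rose in the first contrast and 12.8% fell in the second. Mmp8, neutrophil collagenase, was counted in the secondary granule list and is described here beside the late genes. In the members it stood at 136 and 10.7 CPM in the libraries labelled MA9 Δ/Δ, 88.4 and 216 CPM in those labelled MA9 f/f, and 1997 and 1726 CPM in HM (AraC + Dox and PBS in each). Cycling cells had 0 to 6.29 CPM in MA9 and 104 to 249 CPM in HM. Mmp8 had a log2 fold change of 4.36 ± 0.31 (SE) against cycling cells (edgeR adjusted p = 3.8e-09, higher in 6 of 6 libraries). Cxcr2-positive cells had 548 to 1233 CPM in MA9 and 2418 to 2658 CPM in HM. Mmp8 differed by -2.17 ± 0.45 (SE) from Cxcr2-positive cells on the log2 scale (edgeR adjusted p = 0.0029, lower in 6 of 6 libraries). As counted, Mmp8 was thus intermediate in every library, and closest to the Cxcr2-positive level in HM. In the library with the label MA9 Δ/Δ PBS the members' 10.7 CPM lay under the 16.0 CPM of 3 counts. Its order against the 4.94 CPM of cycling cells is therefore uncertain there. Mmp9, gelatinase B, stood at 1147 and 893 CPM in the libraries labelled MA9 Δ/Δ, 336 and 786 CPM in those labelled MA9 f/f, and 1569.7 and 1511 CPM in HM (AraC + Dox and PBS in each) in the members. Cycling cells had 61.4 to 158 CPM in MA9 and 159 to 229 CPM in HM. Mmp9 had a log2 fold change of 3.02 ± 0.13 (SE) against cycling cells (edgeR adjusted p = 6.8e-12, higher in 6 of 6 libraries). In Cxcr2-positive cells it stood at 1403 to 1915 CPM in MA9 and 1624 to 1789.9 CPM in HM, above the members by the test (-0.84 ± 0.27, edgeR adjusted p = 0.033), a call lost without any 1 of 3 MA9 libraries (Δ/Δ PBS, f/f AraC + Dox or f/f PBS). Fpr1, a receptor for formylated peptides, had a log2 fold change of 3.50 against cycling and -2.39 against Cxcr2-positive cells, and Hdc, which makes histamine, of 2.11 and -1.38. Arg2 (arginase 2) and Slc11a1 (the phagosomal metal transporter Nramp1) fell against Cxcr2-positive cells, by 2.89 and 2.40 on the log2 scale. Ceacam1, an inhibitory adhesion receptor, was the exception and was called higher than in both populations (0.69 and 0.64), the first call being lost with thinned cells, the second without any 1 of 4 libraries (either labelled Δ/Δ, or either HM library) and with no filter on low counts.

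Mature neutrophil genes followed the same order: 18 of 18 fell against Cxcr2-positive cells (12.8% of all genes) and 17 of 17 rose against cycling cells (13.2%), with medians of -1.77 and 1.16. These lists were chosen with earlier results of these libraries known and the limits separate the cells by Cxcr2, so the counts describe the gate. In the members Retnlg, a resistin-like secreted protein of mature neutrophils, stood at 458 and 407 CPM in the libraries labelled MA9 Δ/Δ, 381 and 296 CPM in those labelled MA9 f/f, and 15201 and 12206 CPM in HM (AraC + Dox and PBS in each). Cycling cells had 10.6 to 21.4 CPM in MA9 and 1211 to 3243 CPM in HM. Cxcr2-positive cells had 2315 to 11085 CPM in MA9 and 29998 to 38255 CPM in HM. Retnlg differed by -2.86 ± 0.45 (SE) from Cxcr2-positive cells on the log2 scale (edgeR adjusted p = 0.00039, lower in 6 of 6 libraries). Members of both HM libraries held more Retnlg than members of any MA9 library. With thinned cells Retnlg was seen in 8.14% to 14.8% of members in MA9 and 94.8% to 100% in HM. In lymphoid cells it was seen in 0.339% to 2.17% in MA9 and 78.6% to 95.6% in HM. Shares this high give no level. Cycling cells of HM held 3243 CPM with AraC + Dox and 1211 CPM with PBS, below the members' 15201 and 12206 CPM. How much of the HM level is background was not tested, and neither was the difference between leukaemias. Il1b, the inflammatory cytokine, was low in the members, at 11.3 and 0 CPM in the libraries labelled MA9 Δ/Δ, 5.21 and 3.82 CPM in those labelled MA9 f/f, and 33.8 and 5.24 CPM in HM (AraC + Dox and PBS in each). In Cxcr2-positive cells it reached 77.0 to 418 CPM in MA9 and 277 to 441 CPM in HM. Il1b had a log2 fold change of -4.23 ± 0.32 (SE) against Cxcr2-positive cells (edgeR adjusted p = 3e-06, lower in 6 of 6 libraries). Csf3r, the receptor for G-CSF, stood at 51.2 to 84.8 CPM in MA9 and 102 to 141 CPM in HM in the members. Cxcr2-positive cells had 177 to 302 CPM in MA9 and 347 to 481 CPM in HM. Csf3r differed by -1.77 ± 0.15 (SE) from Cxcr2-positive cells on the log2 scale (edgeR adjusted p = 4.1e-06, lower in 6 of 6 libraries). The chemokine Ccl6 (-4.40), the lectin receptor Clec4d (-4.09), Wfdc17 (-4.07) and the interferon-inducible Ifitm1 (-3.70) had differences of similar size. Members of the library with the label MA9 Δ/Δ PBS held 0 UMIs of Il1b, Ccl6, Clec4d and Ifitm1 among 186920 UMIs, which allows up to 16.0 CPM at 3 counts.

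The S100 alarmins S100a8 and S100a9, which form calprotectin, were very abundant in the members. S100a8 stood at 177173 and 134528 CPM in the libraries labelled MA9 Δ/Δ, 88837 and 124738 CPM in those labelled MA9 f/f, and 175505 and 176313 CPM in HM (AraC + Dox and PBS in each). S100a9 stood at 87179 and 105714 CPM in the libraries labelled MA9 Δ/Δ, 78672 and 110419.6 CPM in those labelled MA9 f/f, and 127601 and 148542 CPM in HM (AraC + Dox and PBS in each). With thinned cells S100a8 was also seen in 26.2% to 60.9% of lymphoid cells in MA9 and 92.9% to 100% in HM. Both were called higher than in cycling cells (0.66 ± 0.12, edgeR adjusted p = 0.00032 and 0.70 ± 0.13, edgeR adjusted p = 0.00022), calls that were lost with thinned cells and at a Camp and Ngp limit of 5%. Neither was called against Cxcr2-positive cells (log2 fold changes 0.21 and 0.11). S100a6, another calcium-binding protein, stood at 3725 and 2108 CPM in the libraries labelled MA9 Δ/Δ, 746 and 701 CPM in those labelled MA9 f/f, and 15932 and 10729 CPM in HM (AraC + Dox and PBS in each) in the members. It was between the cycling cells (69.1 to 767 CPM in MA9 and 2407 to 5713 CPM in HM) and the Cxcr2-positive cells (3196 to 8334 CPM in MA9 and 19447 to 20571 CPM in HM) in every library, with log2 fold changes of 2.69 and -1.56. In the whole S100 list 4 of 8 rose and 0 fell against cycling cells (13.2% and 16.4% of all genes), of which 2 were kept with thinned cells. Against Cxcr2-positive cells 1 of 8 rose and 4 fell (6.68% and 12.8% of all genes). S100a1 was the one that rose (1.34).

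Stefins, inhibitors of cysteine proteases encoded by a cluster of near-identical genes, were abundant and uneven between libraries. Their copies can share reads, so single-gene values are uncertain. Stfa1 stood at 5.65 and 5912 CPM in the libraries labelled MA9 Δ/Δ, 6081 and 5615 CPM in those labelled MA9 f/f, and 3281 and 1726 CPM in HM (AraC + Dox and PBS in each) in the members. In the library with the label MA9 Δ/Δ AraC + Dox that was 1 UMI (exact Poisson interval 0.143 to 31.5 CPM), against 1105 UMIs in the library with the label MA9 Δ/Δ PBS. BC100530 stood at 1521 and 8533 CPM in the libraries labelled MA9 Δ/Δ, 8464 and 9296 CPM in those labelled MA9 f/f, and 6137 and 4353 CPM in HM (AraC + Dox and PBS in each). Stfa3 stood at 11.3 and 605 CPM in the libraries labelled MA9 Δ/Δ, 251 and 537 CPM in those labelled MA9 f/f, and 2202 and 1346 CPM in HM (AraC + Dox and PBS in each). All 3 genes were lowest in MA9 Δ/Δ AraC + Dox. In that library cycling cells had 408 CPM and Cxcr2-positive cells 1098 CPM of Stfa1, above the members, whose value rests on 32 cells. Against cycling cells 5 of 7 stefins tested rose (13.2% of all genes), led by Stfa2 (2.31 ± 0.39, edgeR adjusted p = 0.00013) and Stfa3 (2.29). Of these 5 calls 3 were kept without HM PBS and 3 with thinned cells. Against Cxcr2-positive cells 1 of 8 rose (6.68% of all genes), BC100530 (0.78), a call lost with thinned cells, and none fell.

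The NADPH oxidase makes microbicidal superoxide. Of 14 genes of the NADPH oxidase and antioxidant list, 3 rose against cycling cells, among them Cybb and Ncf1 (p47phox, 0.80), and 0 fell, against 13.2% and 16.4% of all genes. Cybb stood at 2204 and 1461 CPM in the libraries labelled MA9 Δ/Δ, 1509 and 1779 CPM in those labelled MA9 f/f, and 1314 and 1192 CPM in HM (AraC + Dox and PBS in each) in the members. Cycling cells had 1003 to 1351 CPM in MA9 and 1030.1 to 1117 CPM in HM. Cybb had a log2 fold change of 0.74 ± 0.11 (SE) against cycling cells (edgeR adjusted p = 3.6e-05, higher in 6 of 6 libraries), a call lost with thinned cells. Against Cxcr2-positive cells 2 of 14 rose and 1 fell, near the 6.68% and 12.8% of all genes, Hvcn1 (the voltage-gated proton channel, 1.18) and Cybb being higher and Txn1 (thioredoxin, -0.61) lower. The call for Txn1 was lost without the library with the label MA9 f/f AraC + Dox and without HM PBS.

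Among factors of granulopoiesis, Cebpe, the C/EBP factor needed for secondary granules, stood at 582 and 637 CPM in the libraries labelled MA9 Δ/Δ, 928 and 842 CPM in those labelled MA9 f/f, and 121 and 186 CPM in HM (AraC + Dox and PBS in each) in the members. Cxcr2-positive cells had 117 to 502 CPM in MA9 and 53.1 to 55.8 CPM in HM. Cebpe differed by 1.49 ± 0.24 (SE) from Cxcr2-positive cells on the log2 scale (edgeR adjusted p = 0.00046, higher in 6 of 6 libraries). Its difference from cycling cells did not pass the test (0.06 ± 0.14, edgeR adjusted p = 0.76). Gfi1, a repressor that favours the neutrophil over the monocyte fate, stood at 28.3 and 128 CPM in the libraries labelled MA9 Δ/Δ, 101 and 71.7 CPM in those labelled MA9 f/f, and 5.34 and 5.24 CPM in HM (AraC + Dox and PBS in each). It was likewise higher than in Cxcr2-positive cells. Gfi1 had a log2 fold change of 1.33 ± 0.24 (SE) against Cxcr2-positive cells (edgeR adjusted p = 0.0013, higher in 6 of 6 libraries). Both factors were lower in the members of each HM library than in those of any MA9 library. Cebpb, the C/EBP factor of emergency granulopoiesis, was lower than in Cxcr2-positive cells (-1.22), with Junb, an AP-1 subunit (-1.50), Klf6 (-0.96) and Irf8, a monocyte and dendritic cell factor (-2.61). Monocyte and dendritic markers were also lower in the members than in those cells, except that dendritic markers were close in HM PBS, as given above. In all, 3 of 19 factors rose and 6 fell against Cxcr2-positive cells (6.68% and 12.8% of all genes). Against cycling cells 5 rose and 1 fell (13.2% and 16.4%), and 2 of the 5 were kept with thinned cells. Irf8 was the one that fell (-0.88), a call lost without the library with the label MA9 f/f PBS, with doublets removed and at a Camp and Ngp limit of 5%.

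Many receptors for recruitment and restraint lay between the 2 neighbours. Of 10 chemotaxis and homing genes tested, 7 rose and 0 fell against cycling cells (13.2% and 16.4% of all genes), of which 4 were kept with thinned cells. Against Cxcr2-positive cells 1 rose and 5 fell (6.68% and 12.8%). C5ar1, the receptor for complement C5a, had log2 fold changes of 1.51 and -1.16 against cycling and Cxcr2-positive cells, and Ccr1, a chemokine receptor, of 2.04 and -1.76. Cxcr4, the receptor that holds neutrophils in the marrow, stood at 39.6 and 64.2 CPM in the libraries labelled MA9 Δ/Δ, 77.5 and 98.0 CPM in those labelled MA9 f/f, and 103 and 136 CPM in HM (AraC + Dox and PBS in each) in the members. It was called in neither contrast (-0.45 ± 0.14, edgeR adjusted p = 0.03 against Cxcr2-positive cells, under 1.5-fold). Ltb4r1, the leukotriene B4 receptor, was called higher than in both populations (0.67 and 0.66), but both calls were lost in 4 alternatives each. Among 15 genes of SHP-1 and the inhibitory receptors that recruit it, 9 rose and 0 fell against cycling cells (13.2% and 16.4% of all genes). Of the 9, 5 were kept with thinned cells. Against Cxcr2-positive cells 2 rose and 7 fell (6.68% and 12.8% of all genes), and both that rose were lost without the library with the label MA9 Δ/Δ PBS. Pirb, an immunoglobulin-like inhibitory receptor, stood at 232 and 193 CPM in the libraries labelled MA9 Δ/Δ, 95 and 183 CPM in those labelled MA9 f/f, and 353 and 495 CPM in HM (AraC + Dox and PBS in each) in the members. Cycling cells had 31.0 to 60.4 CPM in MA9 and 171 to 237 CPM in HM. Pirb differed by 1.83 ± 0.15 (SE) from cycling cells on the log2 scale (edgeR adjusted p = 2.7e-08, higher in 6 of 6 libraries). Lilrb4a, of the same family, stood at 56.5 and 26.7 CPM in the libraries labelled MA9 Δ/Δ, 21.8 and 28.1 CPM in those labelled MA9 f/f, and 490.0 and 489.8 CPM in HM (AraC + Dox and PBS in each). It differed by 1.65 and -1.20 from cycling and Cxcr2-positive cells. Ptpn6 itself was called in neither contrast (0.57 ± 0.13, edgeR adjusted p = 0.0016 against cycling cells, -0.29 ± 0.18, edgeR adjusted p = 0.27 against Cxcr2-positive cells). Pfkp, the platelet-type phosphofructokinase, was low at 10.7 to 28.3 CPM in MA9 and 16.9 to 21.0 CPM in HM and was called in neither.

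**Figure D3:**
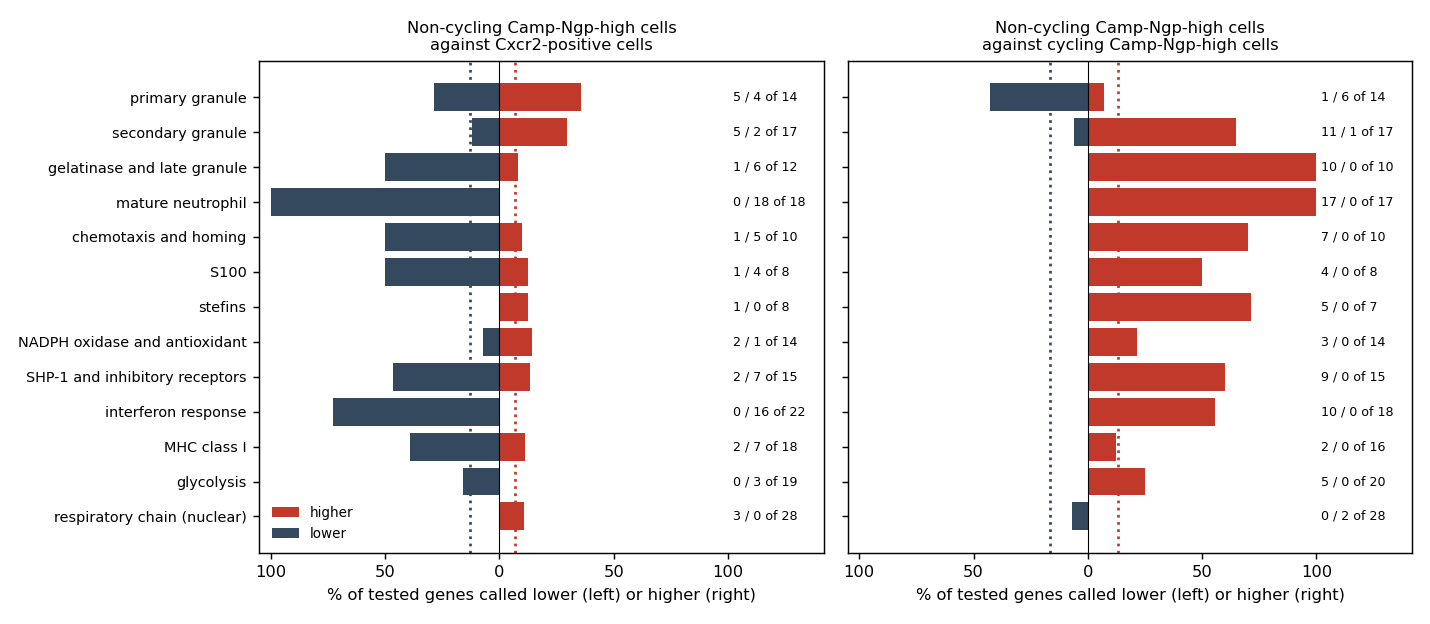
Share of the tested genes of each list that were called lower (bars to the left) or higher (bars to the right) in non-cycling Camp-Ngp-high cells, in percent, against Cxcr2-positive cells on the left and cycling cells on the right; dotted lines are the shares over all genes tested and the text gives higher / lower of tested. Mature neutrophil genes were 18 of 18 lower in the first contrast and 17 of 17 higher in the second, whereas primary granule genes were called in both directions in each.

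The limit on Mki67 and Top2a left many members with DNA replication transcripts in the libraries labelled MA9 f/f. Non-cycling is therefore the name of the limit and not a shown state of these cells. Against cycling cells 24 of 24 S-phase and 24 of 24 mitosis genes were lower, which the limit produces. Cells were then thinned to 2000 UMIs and those with at least 3 UMIs over the 24 S-phase genes were counted. Among the members this share was 17.2 and 11.1% in the libraries labelled MA9 Δ/Δ, 46.3 and 25% in those labelled MA9 f/f, and 0.787 and 1.30% in HM (AraC + Dox and PBS in each). Among cycling cells it was 86.9 and 69.4% in the libraries labelled MA9 Δ/Δ, 79.3 and 76.1% in those labelled MA9 f/f, and 59.5 and 55.5% in HM (AraC + Dox and PBS in each). In Cxcr2-positive cells it was 14.8 and 6.37% in the libraries labelled MA9 Δ/Δ, 8.72 and 6.08% in those labelled MA9 f/f, and 2.70 and 0.519% in HM (AraC + Dox and PBS in each). The members of the library with the label MA9 f/f AraC + Dox (95% interval 42.4% to 50.3%) thus stood above those labelled MA9 f/f PBS (22% to 28.1%), and both above HM, where at most 7.02% is allowed by the intervals. In the libraries labelled Δ/Δ, 29 and 27 members with AraC + Dox and with PBS were deep enough, and their intervals reach from 5.85% to 35.8% and from 2.35% to 29.2%. S-phase genes were also higher than in Cxcr2-positive cells in 14 of 22 tested (6.68% of all genes), with a median of 0.91, and 0 were lower. This count rests on the libraries labelled MA9 f/f: of the 14 calls 2 were kept without MA9 f/f PBS (Mcm5, a replicative helicase subunit, and Dut, a dUTPase), 4 without MA9 f/f AraC + Dox, 9 without MA9 Δ/Δ PBS, 9 without HM PBS and 7 with DESeq2. Mcm4, Mcm6 and Hells were higher in 3 of 6 libraries. At equal depth the members detected fewer genes per cell than cycling cells, by a mean of 108 genes over libraries (SD 30.4, n = 6, fewer in 6 of 6; two-sided exact permutation test p = 0.031, the smallest that 6 libraries allow, 0.062 after adjustment over both contrasts). The medians were 787 and 757 genes in the libraries labelled MA9 Δ/Δ, 870.0 and 790.0 genes in those labelled MA9 f/f, and 641 and 611 genes in HM (AraC + Dox and PBS in each). Against Cxcr2-positive cells the mean difference was -15.7 genes (SD 71.3, n = 6, exact permutation test p = 0.69).

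**Figure D4:**
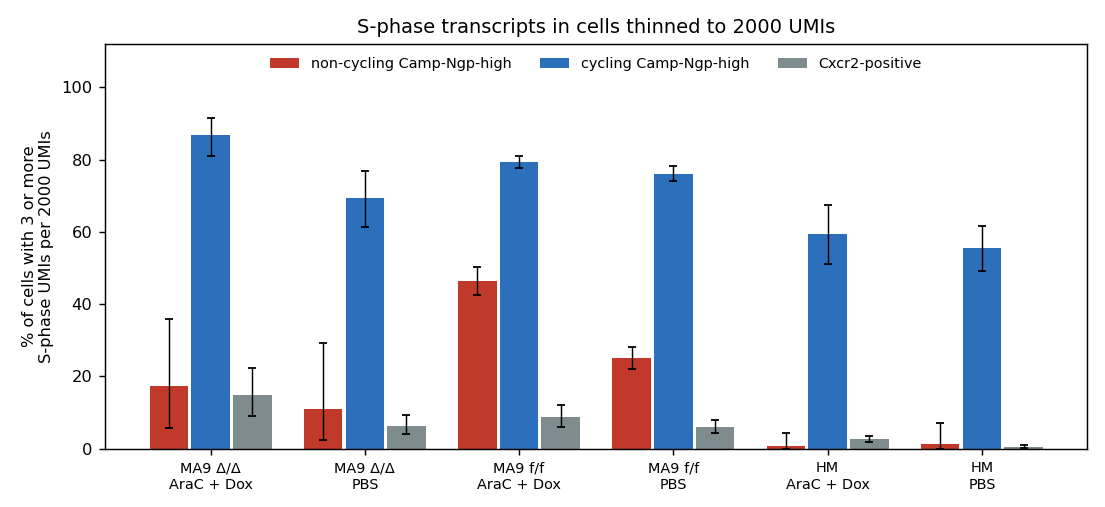
Percent of cells with at least 3 UMIs over 24 S-phase genes after each cell was thinned to 2000 UMIs, per library, in non-cycling Camp-Ngp-high, cycling Camp-Ngp-high and Cxcr2-positive cells; error bars are exact 95% binomial intervals. The non-cycling cells reach 46.3% in MA9 f/f AraC + Dox and 0.787% in HM AraC + Dox, and cycling cells lie between 55.5% and 86.9%.

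Genes of MYC and ribosome biogenesis were lower in the members than in cycling cells in 13 of 22 and higher in 0 (16.4% and 13.2% of all genes), with a median of -0.64, and 7 of the 13 were kept with thinned cells. Of 28 nuclear respiratory chain genes 2 were lower and 0 higher, and against Cxcr2-positive cells 3 were higher and 0 lower, shares below or near those of all genes. Glycolytic genes were higher than in cycling cells in 5 of 20 and lower in 0 (13.2% and 16.4% of all genes), 3 of the 5 being kept without HM AraC + Dox, among them the glucose transporter Slc2a3 (1.47) and the lactate transporter Slc16a3 (0.92). Slc16a3 was in turn lower than in Cxcr2-positive cells (-1.09). Fth1, the ferritin heavy chain that stores iron, stood at 927 and 904 CPM in the libraries labelled MA9 Δ/Δ, 890.5 and 842 CPM in those labelled MA9 f/f, and 5028 and 1045 CPM in HM (AraC + Dox and PBS in each). It was higher than in cycling (1.04) and lower than in Cxcr2-positive cells (-1.53). The survival gene Mcl1 was ordered likewise (0.85 and -1.09). Among p53 targets 9 of 17 rose and 2 fell against cycling cells (13.2% and 16.4% of all genes), and 3 of the 9 were kept with thinned cells. Trp53inp1 (1.80) and Btg2 (1.16) were higher, and the cell cycle inhibitor Cdkn1a (-1.98) and Trp53 itself (-0.91) lower. Against Cxcr2-positive cells 0 rose and 9 of 16 fell (6.68% and 12.8% of all genes).

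Interferon response genes were lower in the members than in Cxcr2-positive cells, in 16 of 22 tested with 0 higher (12.8% of all genes were lower), and higher than in cycling cells in 10 of 18 with 0 lower (13.2% and 16.4% of all genes), of which 3 were kept with thinned cells. Isg15, a ubiquitin-like interferon product, stood at 39.6 and 0 CPM in the libraries labelled MA9 Δ/Δ, 6.40 and 10.3 CPM in those labelled MA9 f/f, and 83.6 and 684 CPM in HM (AraC + Dox and PBS in each) in the members. Cxcr2-positive cells had 15.5 to 77.0 CPM in MA9 and 253 to 1505 CPM in HM. Isg15 had a log2 fold change of -1.40 ± 0.21 (SE) against Cxcr2-positive cells (edgeR adjusted p = 0.00029, lower in 6 of 6 libraries). HM PBS was the highest library in both populations. Ifitm3, a membrane protein that blocks viral entry, stood at 2634 and 759.7 CPM in the libraries labelled MA9 Δ/Δ, 403 and 417 CPM in those labelled MA9 f/f, and 2771 and 3119.7 CPM in HM (AraC + Dox and PBS in each). It was higher than in cycling cells. Ifitm3 differed by 1.51 ± 0.12 (SE) from cycling cells on the log2 scale (edgeR adjusted p = 2.3e-08, higher in 6 of 6 libraries). MHC class I genes were lower than in Cxcr2-positive cells in 7 of 18 (12.8% of all genes), led by H2-D1 (-1.22). Without any 1 of 3 libraries (MA9 Δ/Δ PBS, MA9 f/f PBS or HM AraC + Dox) 4 of the 7 were kept. Canx and Pdia3, chaperones of MHC assembly that act on many secretory proteins, were the 2 that rose (0.72 and 0.90).

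The largest differences among genes of 1 sign in all 6 libraries and at least 100 CPM in the higher population are those named by rule. The lowest against Cxcr2-positive cells beyond those given were Cxcl2, a neutrophil chemokine (-3.35), Tgfbi (-3.24), Cyp4f18, an enzyme that inactivates leukotriene B4 (-2.89), and Cd300ld (-2.68). The highest beyond those given were Tmem216, a transmembrane protein of cilia (2.01), Penk, proenkephalin (1.52), Lta4h, which makes leukotriene B4 (1.51), Zmpste24, a prelamin protease (1.49), and the tetraspanin Cd81 (1.48). Penk was found in MA9 members at 203 and 182 CPM (Δ/Δ, AraC + Dox and PBS) and 743 and 435 CPM (f/f), and in HM at 1.78 and 2.62 CPM. It was thus at or near 0 in HM members. Lta4h stood at 757 and 856 CPM in the libraries labelled MA9 Δ/Δ, 997 and 996 CPM in those labelled MA9 f/f, and 191 and 209.6 CPM in HM (AraC + Dox and PBS in each). It differed from Cxcr2-positive cells by 1.51 ± 0.16 (edgeR adjusted p = 2.3e-05). Against cycling cells the highest beyond those given were Asprv1, a retroviral-like protease (3.06), the metalloprotease Adam8 (3.02), the quiescence factor Slfn1 (3.02), Ceacam10 (2.39) and the phospholipase-like Plbd1 (2.35). The lowest were the cell cycle genes Esco2 (-6.28), Nusap1, Hmmr, Kif15 and Ccna2 (-5.01) and the replication-dependent histones Hist1h2ab (-6.25), Hist1h3c, Hist1h1b, Hist1h2an and Hist1h2ae, which the limit on Mki67 and Top2a selects.

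The members were not uniform, and some gene sums differed with their Camp and Ngp share, not always in 1 direction. The following is a description, since Camp and Ngp chose the cells and all CPM share 1 total. Bins of at least 20 cells were read. In the library with the label MA9 f/f AraC + Dox, primary granule genes summed to 11491, 8685, 4974 and 4281 CPM at 3% to 5%, 5% to 8%, 8% to 12% and at least 12% of UMIs (154, 222, 239 and 48 cells). Elane alone stood at 4089, 3054, 1157 and 689.6 CPM, and Ltf at 660.0, 2010.2, 3803 and 3771 CPM over the same bins. In the library with the label MA9 f/f PBS the primary granule sum was 6591, 3582, 2917 and 3417 CPM (175, 350, 283 and 42 cells), and Ltf was 4387, 5882, 5868 and 5033 CPM. The lowest bin had the largest sum in both. The bins are cut on genes of the rule. The members there held Elane and Prtn3 no more often than lymphoid cells but more often than Cxcr2-positive cells. As said above, the lymphoid share is no measure of background for these genes. The source of the protease UMIs was not tested, and the sums are not read as protease expression. Mature neutrophil genes were also highest in the lowest bin, at 1993, 1771, 1662 and 1269 CPM in MA9 f/f AraC + Dox. In MA9 f/f PBS they summed to 2626, 1832, 1445 and 1336 CPM. Mature neutrophil genes summed to 26511, 22360.2 and 7489 CPM in HM AraC + Dox at 3% to 5%, 5% to 8% and 8% to 12% (65, 43 and 24 cells), and to 21138 and 18715 CPM in the first 2 bins of HM PBS (31 and 36 cells). Mmp8 stood at 2576, 2515 and 729 CPM in the HM AraC + Dox bins, and primary granule genes at 1565, 1849 and 1968 CPM. In the first 2 bins of HM PBS primary granule genes stood at 1844 and 1340 CPM. Among the bins read, the lowest therefore had the largest mature neutrophil sum in each of these libraries. It also had the largest primary granule sum in all of them but HM AraC + Dox.

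Across members of the 4 libraries with at least 50 of them, the genes whose share followed that of Camp most closely, by the median over libraries of Spearman's rho across cells and among 2429 genes, were Chil3 (0.46), Orm1 (0.41), Fcnb (0.40), Ngp (0.37), which the rule used, Hmgn2, a nucleosome-binding protein (0.30), Zmpste24 (0.27), the histone variant H2afz (0.25), Spcs2, a signal peptidase subunit (0.25), Ppia, cyclophilin A (0.25), and Tmem216 (0.24). The genes that ran most against Camp were Retnlg (-0.41), Mmp9 (-0.35), S100a11 (-0.35), Fth1 (-0.33) and S100a6 (-0.30). These cells share library, depth and a common total, so the values describe an order and carry no test.

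**Figure D5:**
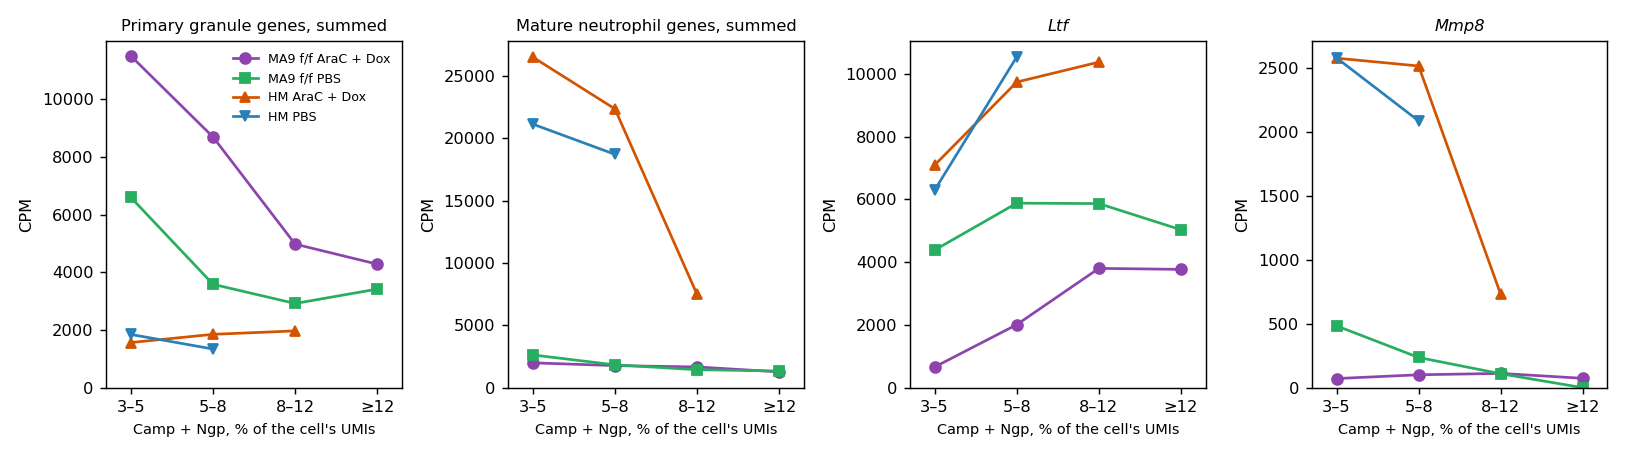
Summed CPM of primary granule genes, mature neutrophil genes, Ltf and Mmp8 in members binned by the percent of their UMIs from Camp and Ngp, in the 4 libraries with bins of at least 20 cells. The primary granule sum is highest in the lowest bin of both MA9 f/f libraries (11491 CPM with AraC + Dox, 6591 CPM with PBS) and of HM PBS (1844 CPM). The mature neutrophil sum is highest in the lowest bin of all 4 libraries.

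Genes of the leukaemic program were read in the members because MLL-AF9 is known to maintain Hoxa9 and Meis1. In the members Hoxa9 stood at 102 and 102 CPM in the libraries labelled MA9 Δ/Δ, 183 and 129 CPM in those labelled MA9 f/f, and 0 and 2.62 CPM in HM (AraC + Dox and PBS in each). All other kept cells had 172 to 215 CPM in MA9 and 7.48 to 12.5 CPM in HM. Meis1 stood at 73.5 and 107 CPM in the libraries labelled MA9 Δ/Δ, 95.3 and 98.3 CPM in those labelled MA9 f/f, and 0 and 0 CPM in HM (AraC + Dox and PBS in each) in the members. The other cells had 78.1 to 146 CPM in MA9 and 2.24 to 2.52 CPM in HM. In MA9 UMIs of both genes were thus found in the members, and in HM both genes were near 0 in members and other cells alike. How much of the MA9 level in the members is background was not tested. Mef2c, a transcription factor of MLL-AF9 leukaemia, stood at 464 and 396 CPM in the libraries labelled MA9 Δ/Δ, 565 and 357 CPM in those labelled MA9 f/f, and 20.5 and 13.1 CPM in HM (AraC + Dox and PBS in each) in the members. The other cells had 556 to 989 CPM in MA9 and 44.9 to 70.7 CPM in HM. Hpgd, a prostaglandin-degrading enzyme, stood at 158 and 198 CPM in the libraries labelled MA9 Δ/Δ, 283 and 147 CPM in those labelled MA9 f/f, and 1.78 and 5.24 CPM in HM (AraC + Dox and PBS in each) in the members. The other cells of every library had more, 743 to 984 CPM in MA9 and 34.5 to 88.0 CPM in HM. Of 11 genes of the Hoxa and Meis list tested, 1 fell and 0 rose against Cxcr2-positive cells (12.8% and 6.68% of all genes). Against cycling cells 1 rose (13.2% of all genes), and Pbx3 (-0.82) and Hpgd (-0.88) fell, 2 of 11 beside 16.4% of all genes. These counts are near or below the shares of all genes and are not read as a result about the list. The call for Pbx3 was lost without the library with the label MA9 f/f AraC + Dox and that for Hpgd with thinned cells. Whether 3′ tags of the introduced Hoxa9 and Meis1 would count towards these genes was not tested, so the HM values were not read as a check of the label.

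Pairs of libraries were compared only where both held at least 50 members: MA9 f/f AraC + Dox against MA9 f/f PBS, and HM AraC + Dox against HM PBS. A gene entered when at least 1 library of the pair held it at 50 CPM. Being past 2-fold is a rule of size, with no test. In bulk sums of a gated population, fewer cells of a kind and less RNA per cell cannot be told apart. Between the MA9 libraries labelled f/f few genes of the members lay past 2-fold. With AraC + Dox 35 of 2533 genes were higher (1.38%) and 34 lower (1.34%), 2.72% in either direction. The median log2 ratio was 0.14 over all genes compared. The members of these libraries still differed in S-phase share, as given above. With median-of-ratios scaling the split was 25 higher and 45 lower. Of 11 primary granule genes 4 were past 2-fold higher and 0 lower. Prtn3 stood at 1774 CPM in the members labelled MA9 f/f AraC + Dox and 518 CPM in those labelled MA9 f/f PBS (log2 ratio 1.78, 95% interval 1.71 to 1.84), and Elane at 2287 and 781 CPM (log2 ratio 1.55, 95% interval 1.49 to 1.61). Ctsg (1.27) and Prss57 (1.36) were the other 2. At least 1 Elane UMI was seen in 65.0% of members with AraC + Dox and 32.8% with PBS, and in 66.3% and 54.9% of lymphoid cells. The members were at or below the lymphoid share in both libraries, but above the 25.6% and 16.4% of Cxcr2-positive cells. The lymphoid share is no measure of background for Elane, as said above. Whether the pair's protease difference is expression by the members was not tested, and it is not read as such. Of 17 secondary granule genes 0 were past 2-fold higher and 2 lower, Ltf and Mmp8. Ltf stood at 2250.0 CPM with AraC + Dox and 5119 CPM with PBS (log2 ratio -1.19, 95% interval -1.22 to -1.15), Mmp8 at 88.4 and 216 CPM (log2 ratio -1.29, 95% interval -1.47 to -1.12) and Mmp9 at 336 and 786 CPM (log2 ratio -1.23, 95% interval -1.32 to -1.14). Of 7 gelatinase and late granule genes 1 was past 2-fold lower, Mmp9, and 0 higher, and of 9 mature neutrophil genes 1 was higher and 1 lower. The other lowest genes were Pira2, an activating immunoglobulin-like receptor (-1.95), Ptpn6 (log2 ratio -1.70, 95% interval -1.89 to -1.51), Crispld2 (-1.49), the hexokinase Hk2 (-1.49), Plbd1 (-1.46) and the sialyltransferase St3gal5 (-1.46). The other highest within the same limit were Fdps, an enzyme of isoprenoid synthesis (1.83), the galectin Lgals1 (1.49), Med21 (1.37) and the granule proteoglycan Srgn (1.25). The Ptpn6 level differs between these libraries although both are labelled f/f, so what separates them cannot be named from the labels.

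Between the HM libraries a larger share of genes lay past 2-fold in the members. With AraC + Dox 216 of 1982 genes were higher (10.9%) and 242 lower (12.2%), 23.1% in either direction, with a median of 0.01. With median-of-ratios scaling the split was 292 higher and 160 lower. Interferon response genes were lower with AraC + Dox in 11 of the 19 compared, and higher in 1, with a list median of -1.53. Isg15 stood at 83.6 CPM in HM AraC + Dox members and 684 CPM in HM PBS members (log2 ratio -3.03, 95% interval -3.39 to -2.69). Ifit3, an antiviral RNA-binding protein, stood at 6.23 CPM in HM AraC + Dox members and 102 CPM in HM PBS members (log2 ratio -4.04, 95% interval -5.44 to -2.86) on 7 and 39 UMIs. Isg15 was also lower with AraC + Dox in the other cells of these libraries, at 103 CPM in HM AraC + Dox and 916 CPM in HM PBS. Ifi27l2a, another interferon product, was the gene that went the other way (1.66). MHC class I genes were past 2-fold lower in 4 of 12, among them H2-T23 (-2.44) and the immunoproteasome subunit Psmb8 (-1.22). Further low genes were the giant ubiquitin ligase Rnf213 (-2.51), the exonuclease Isg20 (-2.13), the linker histone Hist1h1e (-3.09), Fgd4 (-2.62) and Lars2 (-2.13). Mature neutrophil genes were past 2-fold higher with AraC + Dox in 8 of 17 and lower in 0. Clec4d stood at 106 CPM in HM AraC + Dox members and 15.7 CPM in HM PBS members (log2 ratio 2.75, 95% interval 1.59 to 4.23), on 119 and 6 UMIs, and Wfdc17 had a log2 ratio of 2.83. Among the genes named by rule, at 100 CPM or more in either library, the highest ratio was that of Hilpda. Hilpda, a lipid droplet protein induced by low oxygen, stood at 132 CPM in HM AraC + Dox members and 2.62 CPM in HM PBS members (log2 ratio 5.65, 95% interval 3.15 to 10.96), on 148 UMIs and 1 UMI. The metal-binding Mt1 (3.92), the clock-related repressor Bhlhe40 (3.16), the chemokine Cxcl2 (3.12), Cebpb (log2 ratio 2.83, 95% interval 2.34 to 3.37) and the unfolded-protein factor Ddit3 (2.71) followed. Iron genes were higher in 3 of 4: Hmox1, haem oxygenase (log2 ratio 4.32, 95% interval 1.79 to 9.65, on 59 UMIs and 1 UMI), Fth1 (2.27) and Ftl1 (1.03). Of 17 secondary granule genes 1 was past 2-fold higher and 1 lower, with a median of 0.14. Ltf stood at 8301 CPM in HM AraC + Dox members and 9134 CPM in HM PBS members (log2 ratio -0.14, 95% interval -0.19 to -0.08). HM AraC + Dox kept 87.2% of its barcodes and its members held 1124404 UMIs, against 22.1% and 381765 UMIs in HM PBS, so RNA quality moves with this pair. Markers of other cell types did so too: mast cell and basophil markers summed to 56.0 CPM in HM AraC + Dox members and 0 CPM in HM PBS members, plasma markers to 149 and 49.8 CPM, and dendritic markers to 35.6 and 5.24 CPM. In the other cells mast cell and basophil markers summed to 691 CPM with AraC + Dox and 3.67 CPM with PBS. The part of either in this comparison was not tested.

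The 32 and 33 members labelled MA9 Δ/Δ were too few for such a comparison and are given as levels. Ltf stood at 4381 CPM (exact Poisson interval 4078 to 4700.3) in the library with the label Δ/Δ AraC + Dox. The library with the label Δ/Δ PBS had 5227 CPM (4904 to 5565). Elane stood at 1108 CPM (958 to 1274) and 3172 CPM (2922 to 3438), higher with PBS, whereas the pair labelled f/f had the higher value with AraC + Dox. Ifitm1 stood at 492 CPM in the library with the label Δ/Δ AraC + Dox (87 UMIs) and at 0 UMIs in that with the label Δ/Δ PBS, and Ifitm3 at 2634 and 759.7 CPM. The spread between these 2 small groups includes differences among few cells, whose size was not tested.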

How the data were processed

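Bone marrow of leukaemic mice was profiled in 6 droplet libraries, and per the labels' protocols red cells were lysed and a Chromium Single Cell 3′ v2 kit was used. The values deposited by the authors are raw counts, 1 whole number of UMIs for each gene in each barcode, with no normalization. Per the submitters' processing notes they were aligned to mm10 with Cell Ranger 3.0.2, which the headers of the MA9 files also name. The HM files name no software and list 32285 features against 31053 in MA9, and the 30406 shared features were used. Groups came from the labels alone. The members, the gene lists and the comparisons were chosen with earlier results of these data known. UMIs were summed per library and population and fitted with edgeR 4.0.16 in R 4.3.3 (TMM, filterByExpr, quasi-likelihood test, library as a block, Benjamini-Hochberg adjustment). Where nothing says that cells came from separate mice, p-values measure the spread between these libraries. Shares have exact Clopper-Pearson intervals, levels exact Poisson intervals, and ratios of 2 libraries exact conditional intervals, all at 95% and for counting error only. A limit for 0 UMIs is 3 counts of the total. Doublets were scored with Scrublet in scanpy 1.11.5. Its own threshold marked 0% to 0.0428% of cells in 4 libraries, so the mean threshold of both libraries labelled MA9 f/f was used there (0.195), a choice made after seeing the data. Removing the 29 to 546 cells called per library was an alternative, and doublets were otherwise kept. Alternatives were median-of-ratios scaling, DESeq2 1.42.0, no filter on low counts, leaving out each library, Camp and Ngp limits of 2% and 5%, and thinning. Genes were named as the 10 highest and 10 lowest per contrast of 1 sign in every library at 100 CPM or more, the 8 highest and 8 lowest per pair of libraries, and in each list the 6 most abundant and the 4 with the largest differences per contrast. Canx, Cd177, Cxcr4, Gfi1, Itgb2l, Olfm4, Plaur and Trp53 fall outside this and were chosen after their values were seen, as were the genes said to differ between libraries in list counts (Ftl1, Ifi27l2a and Psmb8). Some genes counted in the lists are not reported here by name. On simulated counts the fit against Cxcr2-positive cells (7651 genes) called 50 of 50 genes changed 4-fold, 42 of 50 raised 2-fold, 28 of 50 at 0.5-fold and 5 of 7451 unchanged ones. The fit against cycling cells (8153 genes) called 50, 46 and 27 of 50 and 6 of 7953. At 1.5-fold they called 8 of 50 and 7 of 50. The simulation gave every library the same mean profile and a fixed spread, so these rates need not hold for these libraries.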

Additional observations from a re-analysis of the deposited data

Results flagged for a closer look

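For 11 of the genes in the lists or named by rule, the members' difference from a neighbouring population had 1 sign in all 4 MA9 libraries and the other sign in both HM libraries. None of these differences between leukaemias was tested. Against Cxcr2-positive cells the MA9 median minus the HM median of the log2 ratio was 2.10 for the ribonucleotide reductase subunit Rrm2 and 1.49 for the mitotic kinase Cdk1, both with 0 UMIs in the sparsest population, 1.03 for Odc1, which starts polyamine synthesis, and 0.42 for the glycolytic kinase Pgk1, each higher in MA9 members. It was -0.31 for Ptpn6, lower in MA9 members. Against cycling cells the difference was 1.68 for Orm1, 1.09 for Tmem216, 1.09 for Zmpste24 and 0.70 for Hvcn1, each higher in MA9 members, and -0.94 for the nucleolar gene Gnl3 and -0.38 for glutathione reductase, Gsr, each lower. Orm1 thus stood above cycling cells in MA9 members (median log2 ratio 0.78) and below them in HM members (-0.90), so the cycling contrast over all 6 libraries averages opposite directions for it. Between libraries, Elane had a log2 ratio of 1.55 between members labelled MA9 f/f AraC + Dox and MA9 f/f PBS and -0.78 between HM AraC + Dox and HM PBS, a difference of 2.33 that was not tested. Mmp8 had ratios of -1.29 and 0.21 in the same pairs, a difference of -1.50, and Rnf213 had 0.44 and -2.51, a difference of 2.95, which were not tested either.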

How the results depend on the processing

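Leaving out single libraries moved the number of genes called against Cxcr2-positive cells between 246 (without MA9 f/f PBS) and 667 higher in the members (511 with all 6 libraries), with 312 without MA9 f/f AraC + Dox, and between 605 (without MA9 f/f PBS) and 1078 lower (976 with all). Against cycling cells it gave 875 to 1095 higher (1073 with all) and 1102 to 1441 lower (1339 with all). Thinning before the limits gave 897 genes higher against Cxcr2-positive cells, and 491 higher and 570 lower against cycling cells. It moves cells with few Mki67 or Top2a UMIs into the members. It also left 4864 genes to test against cycling cells, beside 8153 without thinning. The part of each was not tested. Without a filter on low counts 1516 genes were lower against Cxcr2-positive cells. Thinned shares of members were 0.828% and 1.04% in MA9 Δ/Δ, 13.6% and 16.9% in MA9 f/f, and 11.2% and 9.46% in HM (AraC + Dox and PBS in each). At a Camp and Ngp limit of 2% they were 8.14% and 10.8% in MA9 f/f and 3.68% and 4.21% in HM, and at 5% they were 0.170% in MA9 Δ/Δ PBS, 5.22% and 7.84% in MA9 f/f and 1.48% and 2.25% in HM. At 20 CPM the pair labelled MA9 f/f had 83 genes higher and 59 lower past 2-fold and the HM pair 449 and 611, and median-of-ratios scaling left 160 lower in HM. Mpo against Cxcr2-positive cells changed direction with thinned cells, to 0.0127 on the log2 scale, the cause of which was not tested. Of 331 calls of named or listed genes, 229 were kept under every alternative run and 102 were lost under at least 1, most often with thinned cells (45), without MA9 f/f PBS (40), without MA9 Δ/Δ PBS or without HM PBS (30 each). The difference in genes per thinned cell stayed negative without each library, at -43.0 (without MA9 f/f AraC + Dox) to -4.7 genes against Cxcr2-positive cells (-15.7 with all libraries), and at -115.4 to -102.0 genes against cycling cells. No paired analysis was possible because each pair compared is 1 library against 1, while a treatment contrast over all 3 pairs was left out, since 2 MA9 labels are in doubt. Within libraries the library was already the block. Depth limits the 32 and 33 members labelled MA9 Δ/Δ most, and genes at 0 UMIs there are bounded only at 3 counts.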
